A study of Mus musculus with 4 samples.

Results

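The genes described here are 9 core factors of nonsense-mediated mRNA decay (NMD), Upf1, Upf2, Upf3a, Upf3b, Smg1, Smg5, Smg6, Smg8 and Smg9. They were taken by gene symbol from a table of 55401 genes, each symbol matched 1 row, and all 9 passed the filter on low counts. The values come from 4sU-seq of a 129/Ola mouse embryonic stem cell line, in which RNA that cells make in the presence of 4-thiouridine is tagged with biotin, pulled down and sequenced. The cells carried SNRNP70 (U1-70K), a core protein of the splicing particle U1 snRNP, fused to an auxin-inducible degron, through which the auxin IAA sends a protein to the proteasome. The treated cells had received IAA for 5 h and carry the genotype label "SNRNP70 degration", and the cells they are set against had received none (0 h). The 0 h cells carry the genotype label WT, although their titles name the same degron line. Each time had 2 libraries. The sources used here give neither the number of clones nor how long the RNA was labelled, nor whether RNA was spiked in.

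NMD is the pathway that destroys mRNAs whose translation ends too early. The RNA helicase UPF1 binds the mRNA, and UPF2 and the UPF3 proteins link it to the exon junction complex that splicing leaves on the RNA. The kinase SMG1, held in check by its partners SMG8 and SMG9, phosphorylates UPF1, and phosphorylated UPF1 recruits the endonuclease SMG6 and the adaptor SMG5. In human and mouse cells several of these factors are themselves encoded by mRNAs that NMD can destroy, and mouse embryos do not survive the loss of Upf1, Smg1 or Smg6.

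The libraries held 15645894 and 10349277 counts after 5 h and 17752887 and 7174772 counts at 0 h. Levels are in CPM, counts scaled to a common library size with trimmed-mean (TMM) factors, and every change is relative to the other RNAs of its library. The counts are treated as estimates from coverage, which can make counting error larger than their size shows. The series text calls the replicates independent, but the labels name no separate cultures, and p-values cover the spread between these 4 samples alone, which may be technical. All 8 embryonic stem cell markers were present, with summed levels of 3304 and 3315 CPM after 5 h and 3069 and 2939 CPM at 0 h. Single markers moved in both directions beneath this sum. By the test described below 3 of them rose and 2 fell, where 22.0% of all tested genes rose and 21.2% fell. The 6 fibroblast feeder markers summed to 13.1 and 12.5 CPM after 5 h and 10.1 and 9.16 CPM at 0 h, with Col3a1, Dcn and Lum at 0 in every library. The 7 differentiation markers summed to 36.8 and 47.8 CPM after 5 h and 32.7 and 31.2 CPM at 0 h. Labelled Snrnp70 RNA itself stood at 451 and 475 CPM after 5 h, against 249 and 243 CPM at 0 h (edgeR, adjusted p = 3.69e-05). As the degron removes protein and not RNA, this value is no check of the labels.

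After 5 h of auxin, labelled RNA of Upf1, Smg5 and Smg8 rose to between 1.55 and 1.72 times the 0 h level, and labelled RNA of Smg1 fell to 0.802 times it. The other 5 factors, Upf2, Upf3a, Upf3b, Smg6 and Smg9, did not pass the test. A gene passed at an adjusted p under 0.05 in edgeR's quasi-likelihood test over all 17344 tested genes. Counts of this size are common in these data: 22.0% of all tested genes rose and 21.2% fell, 43.2% in either direction, against 3, 1 and 4 of the 9 factors. The median log2 fold change was 0.23 for the 9 factors and -0.02 for all tested genes. The 5 h and 0 h libraries did not overlap for 8 of the 9 factors, as was the case for 73.5% of all tested genes.

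**Figure D1:**
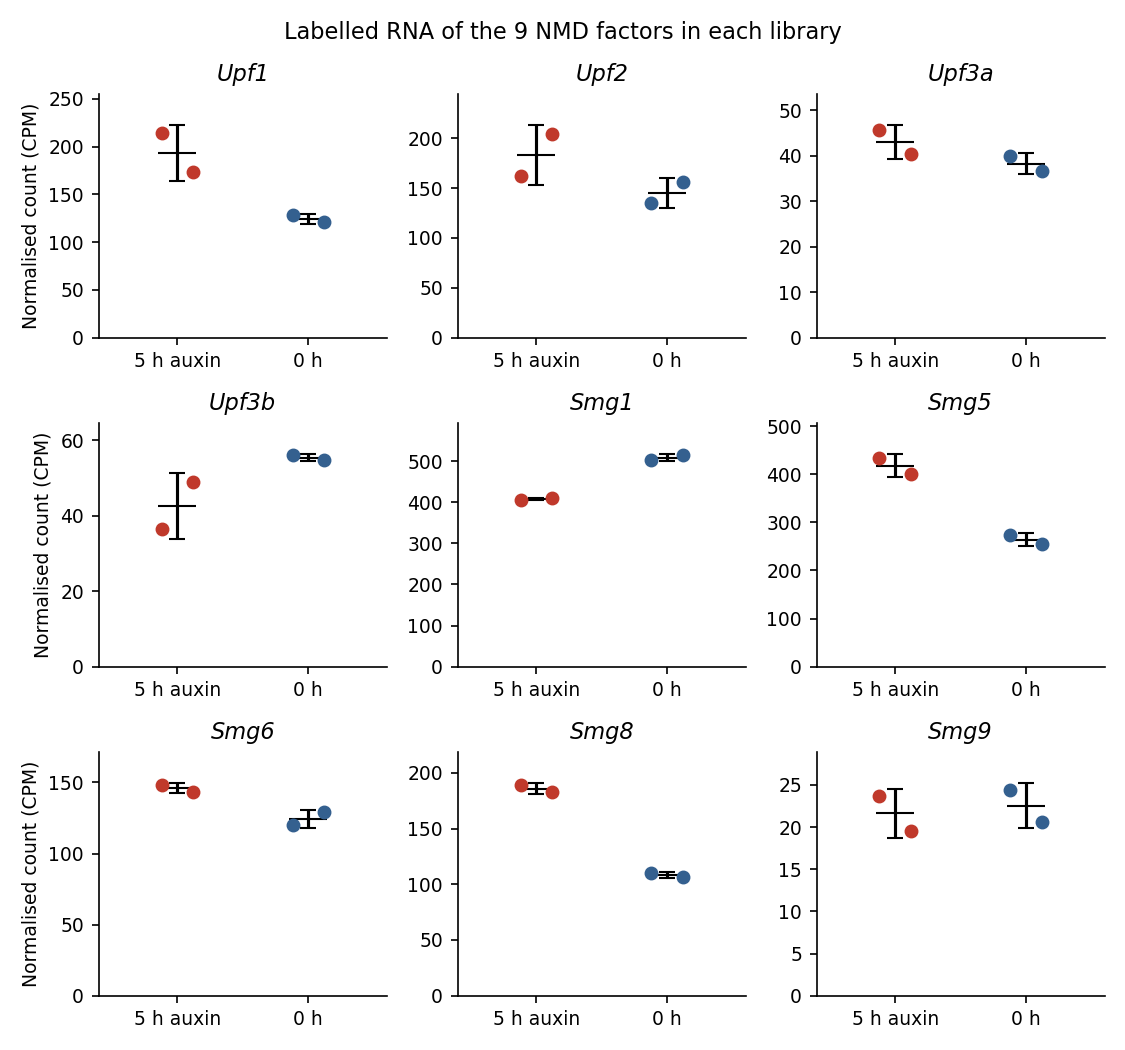
Labelled RNA of each NMD factor in CPM (vertical axes, each starting at 0) in the 2 libraries after 5 h of auxin (red) and the 2 libraries at 0 h (blue), with the mean (bar) and SD. Upf1, Smg5 and Smg8 lie clearly higher after 5 h, Smg1 lies lower, and the libraries of the 2 times overlap for Smg9 only.

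The promoters of the 4 factors that passed the test are shown so that the sequence at the start of the genes that moved can be read beside their values. Short stretches of the paralogues Upf3a and Upf3b, which share the letters TCGCGAG with Upf1 and Smg5, are shown with them. All sequences come from RefSeq on GRCm38.p6, to which mm10 corresponds, where all 9 factors had an entry. Promoters run 5′ to 3′ on the gene's strand from 250 bases before the start to 50 bases after it. For each factor 1 listed start was used, which can differ from the end of its span. The promoters of Smg1, Upf3a and Smg9 lie wholly inside the spans given below. The printed promoters lie at chr8:70353230-70353529 (minus strand) for Upf1, chr3:88336010-88336309 (plus) for Smg5, chr11:87086728-87087027 (minus) for Smg8 and chr7:118243588-118243887 (minus) for Smg1. The stretches lie at chr8:13785621-13785650 (plus) for Upf3a and chrX:37110373-37110402 (minus) for Upf3b. Capitals mark TCGCGAG, the core of a palindromic CGCG element common at housekeeping promoters, and the core of the NRF1 motif, GCGCA and GCGC with any 1 base between them, on either strand.
Upf1: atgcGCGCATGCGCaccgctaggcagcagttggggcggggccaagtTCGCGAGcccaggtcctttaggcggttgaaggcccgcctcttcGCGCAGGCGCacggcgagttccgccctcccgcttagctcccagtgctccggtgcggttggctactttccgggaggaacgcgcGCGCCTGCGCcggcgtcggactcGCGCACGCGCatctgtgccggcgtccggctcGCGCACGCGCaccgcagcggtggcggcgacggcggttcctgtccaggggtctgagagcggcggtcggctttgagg
Smg5: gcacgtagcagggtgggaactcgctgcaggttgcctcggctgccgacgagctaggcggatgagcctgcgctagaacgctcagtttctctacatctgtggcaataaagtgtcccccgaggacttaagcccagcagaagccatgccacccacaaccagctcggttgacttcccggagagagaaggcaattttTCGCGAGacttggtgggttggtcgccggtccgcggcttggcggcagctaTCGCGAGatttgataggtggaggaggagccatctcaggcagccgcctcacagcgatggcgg
Smg8: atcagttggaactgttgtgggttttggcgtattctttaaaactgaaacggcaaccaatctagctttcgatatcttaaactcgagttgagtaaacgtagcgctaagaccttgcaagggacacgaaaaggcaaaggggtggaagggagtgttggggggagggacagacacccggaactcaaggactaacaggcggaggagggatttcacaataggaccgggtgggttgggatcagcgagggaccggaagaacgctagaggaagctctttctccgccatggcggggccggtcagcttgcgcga
Smg1: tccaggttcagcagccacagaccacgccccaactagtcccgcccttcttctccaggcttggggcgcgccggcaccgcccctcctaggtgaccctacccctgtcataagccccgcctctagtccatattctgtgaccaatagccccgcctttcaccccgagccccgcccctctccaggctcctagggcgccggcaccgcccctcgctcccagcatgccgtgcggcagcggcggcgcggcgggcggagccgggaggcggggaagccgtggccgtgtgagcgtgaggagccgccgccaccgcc
Upf3a (30 bases): gctgcctagtcCTCGCGAGgcttcgttctc
Upf3b (30 bases): ggccttaaactCTCGCGAGatctccgggag

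TCGCGAG on either strand was found in the promoters of 4 of the 9 factors, Upf1, Upf3a, Upf3b and Smg5, with 2 separate matches in Smg5, at -60 and -11 from the start. In Upf3a and Upf3b the matches on the 2 strands overlap, so that the letters read CTCGCGAG. These letters lie after the start in Upf3a, from 18 to 25, and before it in Upf3b, from -69 to -62. The 7 letters TCGCGAG occur in 1.93% of all 32851 promoters. They occur in 5.58% of the 9764 promoters with at least 18 CpG dinucleotides, the lowest number among the 9 factors. The NRF1 core was found 5 times in Upf1, 2 times in Smg9 and 1 time in Smg6, and 4.60% of all promoters and 12.9% of the CpG-rich ones hold it. Neither motif was found in the printed windows of Smg8 and Smg1. Of the other letters searched on both strands, the GC box GGGCGG was in 7 of the 9 (35.7% of all promoters), CCAAT in 4 (37.4%), the ETS core CCGGAA in 2 (14.9%) and TATAAA in 0 (13.6%). For these letters no share among the CpG-rich promoters was computed. The 6 motifs were chosen after the sequences were seen. The 9 promoters held 18 to 47 CpG dinucleotides, against a median of 7 for all promoters. Among the 499 tested genes with TCGCGAG in a promoter, 33.3% rose and 24.6% fell, with a median log2 fold change of 0.04. Among the 1230 tested genes with the NRF1 core, 25.8% rose and 29.4% fell, with a median of -0.05. Of all tested genes, whatever their level or CpG number, 22.0% rose and 21.2% fell. Genes matched in level or CpG number were not compared.

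Upf1, the helicase at the centre of the pathway, rose. It had 214 and 173 CPM after 5 h, against 128 and 121 CPM at 0 h. The 5 h libraries were both higher, with a wider spread between them than between the 0 h libraries. The means were 193 ± 28.9 CPM after 5 h and 124 ± 5.40 CPM at 0 h (SD, n = 2 each), a log2 fold change of 0.64 ± 0.12 (SE; edgeR, adjusted p = 0.00134). The gene lies on chromosome 8 from 70331493 to 70353423. Its far end overlaps Cers1 and Gdf1, which run on the other strand, by 96 and 100 bases, and neither exceeded 2.55 CPM in any library.

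Upf2, the adaptor between UPF1 and UPF3, did not pass. Its labelled RNA was at 162 and 204 CPM after 5 h, against 135 and 156 CPM at 0 h. The lower 5 h library lay close to the higher 0 h library, and the log2 fold change was 0.33 ± 0.13 (edgeR, adjusted p = 0.0539). The value depended on the 5 h libraries, at 0.50 without replicate 1 (edgeR, adjusted p = 0.000205) and 0.18 without replicate 2 (edgeR, adjusted p = 0.226). DESeq2 gave an adjusted p of 0.0446 and limma-voom an adjusted p of 0.0366. Upf2 was past the threshold in 8 of 14 alternatives, in 1 of them, mitochondrial scaling, as a fall. Upf2 spans 5951447 to 6056703 on chromosome 2.

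Upf3a and Upf3b are paralogues. UPF3B is the main bridge to the exon junction complex, and UPF3A is a weaker factor whose protein is known to build up when UPF3B is missing. Upf3a, on chromosome 8 from 13785055 to 13798723, had 45.6 and 40.4 CPM after 5 h, against 39.9 and 36.6 CPM at 0 h. The lower 5 h library was barely above the higher 0 h library. Its log2 fold change of 0.17 ± 0.14 did not pass (edgeR, adjusted p = 0.357). Without 5 h replicate 1 it was 0.076, without 0 h replicate 2 it was 0.11 and without 5 h replicate 2 it was 0.26, and none of these passed. Upf3b, on the X chromosome from 37091678 to 37110471, had 36.5 and 48.9 CPM after 5 h, against 56.0 and 54.7 CPM at 0 h. Both 5 h libraries were lower, and replicate 1 was well below replicate 2. The log2 fold change was -0.38 ± 0.15 (edgeR, adjusted p = 0.0656). It was -0.18 without 5 h replicate 1 (edgeR, adjusted p = 0.330) and -0.59 without 5 h replicate 2 (edgeR, adjusted p = 0.00313). Upf3b passed as a fall in 6 of 14 alternatives, among them limma-voom (adjusted p = 0.0291), counts divided by 4 (edgeR, adjusted p = 0.0158) and the stricter count filter (edgeR, adjusted p = 0.0204), and DESeq2 gave an adjusted p of 0.134.

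The ratio of Upf3a to Upf3b counts within a library cannot be changed by library scaling. It was 1.25 and 0.827 after 5 h, against 0.713 and 0.670 at 0 h. Both 5 h ratios were higher than both 0 h ratios, and they differed from each other by more than the nearest ones of the 2 times did. On the log2 scale the mean ratio was 0.03 ± 0.42 after 5 h and -0.53 ± 0.06 at 0 h (SD, n = 2 each), a difference of 0.56. The exact two-sided permutation test gave p = 0.333, the smallest that 2 against 2 libraries allow. Without 5 h replicate 1 the difference was 0.26, and without 5 h replicate 2 it was 0.86.

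Among the genes of the SMG1 kinase complex, labelled RNA of Smg1 fell, that of Smg8 rose and that of Smg9 did not pass the test. Smg1, which encodes the kinase, fell to 406 and 410 CPM after 5 h, against 503 and 514 CPM at 0 h. The libraries of each time lay close together and the groups were well apart. The means were 408 ± 3.17 CPM after 5 h and 509 ± 8.17 CPM at 0 h (SD, n = 2 each), with a log2 fold change of -0.32 ± 0.08 (edgeR, adjusted p = 0.00967). The value hardly moved when a 0 h library was left out, but the call was lost, with an adjusted p in edgeR of 0.0966 without 0 h replicate 1 and 0.141 without 0 h replicate 2. Smg1 spans 118131308 to 118244437 on chromosome 7, and the snoRNA gene Gm25683, which lies within it, was listed at 0 in every library. So was the lncRNA gene 4930583K01Rik, which overlaps Smg1 by 531 bases on the other strand. The lncRNA gene Gm40454, with an overlap of 1407 bases, had no entry under this symbol in the deposited counts. Its part in the Smg1 value was not tested.

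Smg8, whose protein restrains SMG1, rose most among the 9 factors. Its labelled RNA was at 189 and 183 CPM after 5 h, against 110 and 106 CPM at 0 h. The spread within each time was small beside the gap, with means of 186 ± 4.71 CPM after 5 h and 108 ± 2.72 CPM at 0 h (SD, n = 2 each). The log2 fold change was 0.78 ± 0.09 (edgeR, adjusted p = 0.000127). Smg8 lies on chromosome 11 from 87077732 to 87086777, the shortest span of the 9. Smg9, on chromosome 7 from 24397517 to 24422777, encodes the other SMG1 partner, which pairs with SMG8. It had 23.7 and 19.6 CPM after 5 h, against 24.4 and 20.6 CPM at 0 h, so the times overlapped, and its log2 fold change was -0.06 ± 0.18 (edgeR, adjusted p = 0.813).

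Within each library, Smg8 had 0.466 and 0.445 times the counts of Smg1 after 5 h, against 0.219 and 0.207 times at 0 h. The ratio of Smg8 to Smg9 was 7.99 and 9.33 after 5 h, against 4.51 and 5.15 at 0 h. For both ratios the 5 h libraries were clear of the 0 h libraries, and the log2 differences were 1.10 and 0.84. Each had the smallest p the design allows in the exact two-sided permutation test, p = 0.333. Counts also scale with transcript length, so these ratios show change between the times and not relative amounts of the RNAs.

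Among the factors that act on phosphorylated UPF1, Smg5 rose and Smg6 did not pass. Smg5, whose protein leads the RNA to deadenylation and decapping, had 435 and 401 CPM after 5 h, against 274 and 254 CPM at 0 h. The 5 h libraries were far above the 0 h libraries, with means of 418 ± 23.7 CPM after 5 h and 264 ± 14.2 CPM at 0 h (SD, n = 2 each). The log2 fold change was 0.66 ± 0.09 (edgeR, adjusted p = 0.000259). Smg5 spans 88336259 to 88362338 on chromosome 3.

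Smg6, which encodes the endonuclease that cuts the RNA near the early stop codon, had 148 and 144 CPM after 5 h, against 120 and 129 CPM at 0 h. The groups did not overlap, but the log2 fold change of 0.23 ± 0.10 missed the threshold (edgeR, adjusted p = 0.0791) and passed it without 5 h replicate 2 (edgeR, adjusted p = 0.0436). Smg6 lies on chromosome 11 from 74925854 to 75164448 and overlaps Srr by 1680 bases at its start, with Srr on the other strand. Srr had 12.3 and 10.4 CPM after 5 h, against 5.15 and 3.56 CPM at 0 h, and it rose (log2 fold change 1.35 ± 0.29; edgeR, adjusted p = 0.00362). Hic1, which overlaps the other end by 3072 bases, had lower CPM than Srr in every library. The longest overlap, 15427 bases, is with the lncRNA gene Gm51907 on the other strand, which had no entry under this symbol in the deposited counts. How much of the Smg6 value comes from such overlaps was not tested.

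As a share of the counts of all 9 factors, which no library scaling can change, Smg1 made up 24.5% and 25.3% after 5 h, against 36.2% and 36.9% at 0 h. Smg5 made up 26.2% and 24.7% after 5 h, against 19.7% and 18.3% at 0 h. Smg8 had 11.4% and 11.2% after 5 h, against 7.92% and 7.63% at 0 h, and Upf1 had 12.9% and 10.7% after 5 h, against 9.22% and 8.66% at 0 h. The make-up of the family thus shifted from Smg1 toward Smg5, Smg8 and Upf1. The share of Smg6 was close in all libraries, at 8.94% and 8.84% after 5 h and 8.64% and 9.27% at 0 h. The 9 factors together had 1659 and 1623 CPM after 5 h and 1390 and 1392 CPM at 0 h.

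**Figure D2:**
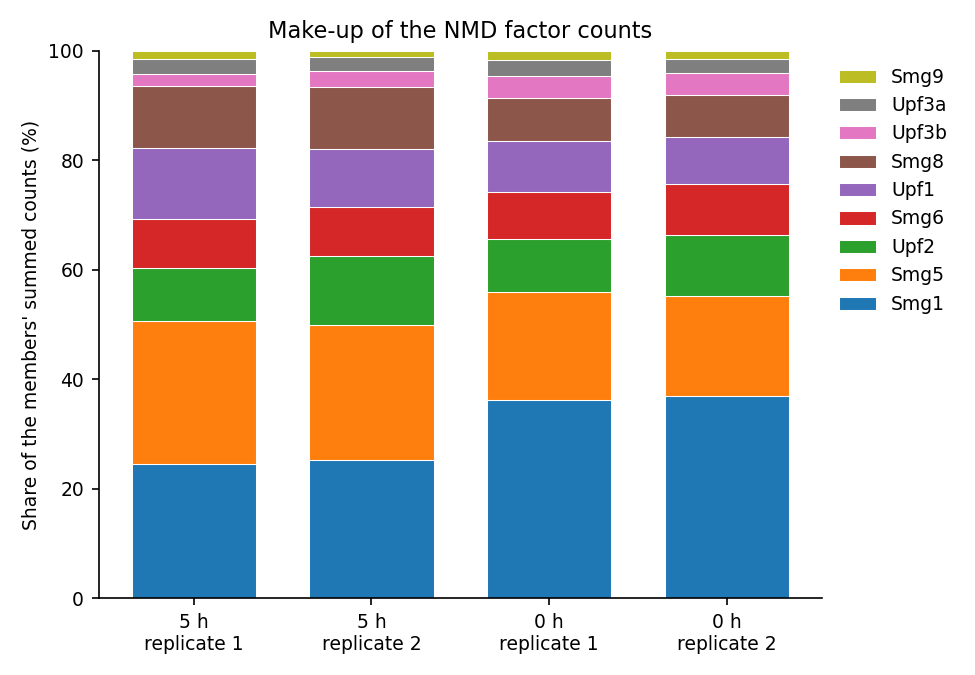
Share of the summed counts of the 9 NMD factors (percent, vertical axis) taken by each factor in each library, with the 5 h libraries on the left and the 0 h libraries on the right. Smg1 takes 24.5% and 25.3% after 5 h and 36.2% and 36.9% at 0 h.

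The sign of a change depended on the scaling for all factors but Smg1, Upf3b and Smg9, which were negative under each of the 3 scalings. With library totals in place of TMM the median of all tested genes was -0.28, and with scaling to the mitochondrially encoded genes it was -0.86. Mitochondrial genes took 6.03% and 7.17% of the counts after 5 h and 4.41% and 4.34% at 0 h. With library totals Upf1 (0.37), Smg5 (0.39) and Smg8 (0.51) still rose, and Smg1 (-0.59) and Upf3b (-0.65) fell. With mitochondrial scaling none of the 9 rose by edgeR, and Smg1 (-1.17), Upf3b (-1.24), Smg9 (-0.89), Upf3a (-0.67), Smg6 (-0.61) and Upf2 (-0.53) fell. Upf1, Smg5 and Smg8 did not pass there, with values of -0.19, -0.18 and -0.06. Of all 17344 tested genes, 2298 rose and 5257 fell with library totals, and 396 rose and 8872 fell with mitochondrial scaling. Under each of the 3 scalings Smg8, Smg5 and Upf1 had the highest values of the 9 factors and Smg1 and Upf3b the lowest, an order that a common scaling factor hardly alters.

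**Figure D3:**
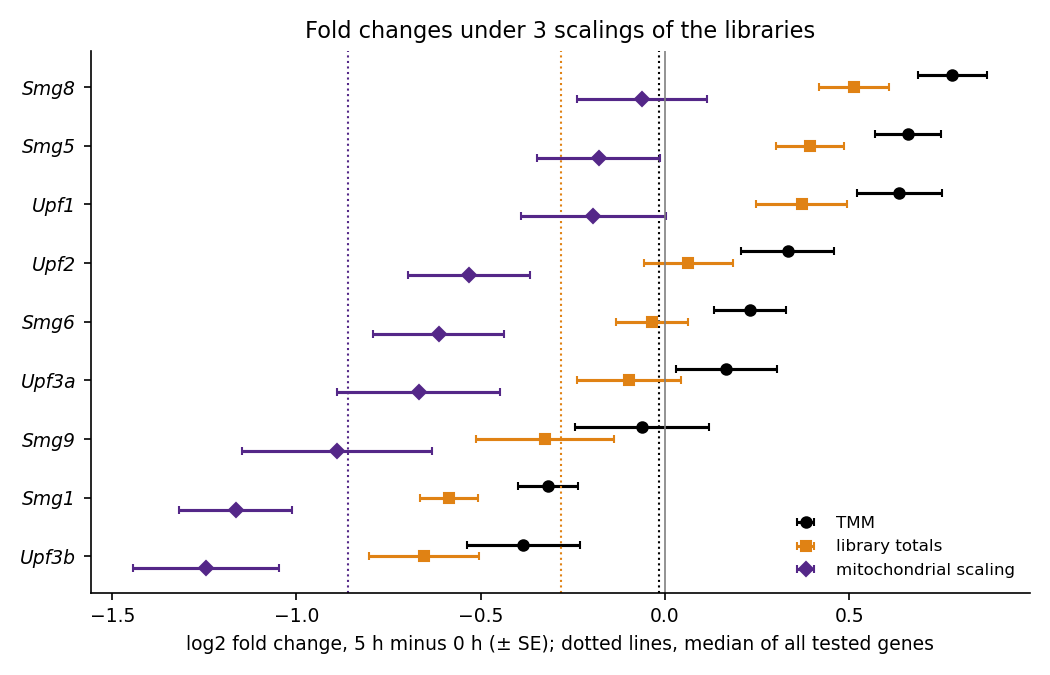
Log2 fold change, 5 h minus 0 h, with SE (horizontal axis) of each NMD factor under TMM (black), library totals (orange) and mitochondrial scaling (purple). Dotted lines mark the median of all tested genes under each scaling, at -0.02, -0.28 and -0.86, and the 9 factors keep nearly the same distance from it.

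Gene span, the distance from start to end in RefSeq, goes with the change over all genes in these data, so each factor was set beside tested genes of its span class. Smg8 (9.05 kb) was at percentile 86.2 of log2 fold change among genes of 5 to 20 kb, and Upf1 (21.9 kb) and Smg5 (26.1 kb) were at percentiles 88.7 and 89.5 among genes of 20 to 50 kb. The 3 longest factors all exceed 100 kb, a class with a median of -0.29. Within it Smg1 (113 kb) was near the middle, at percentile 48.7, whereas Upf2 (105 kb) and Smg6 (239 kb) were at 83.6 and 78.8. Upf3b (18.8 kb) was at percentile 33.5 of its class, Upf3a (13.7 kb) at 57.6 and Smg9 (25.3 kb) at 57.3. In all, 7 of the 9 factors lay above the median of their class, all but Upf3b and Smg1.

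Of 10 other tested factors named in NMD, 3 rose, 3 fell and 4 did not pass, close to the 22.0% of all tested genes that rose and the 21.2% that fell. This list and those that follow were chosen with earlier results of these data known, so their counts are a description and not a test. The list had a median of 0.06 on the log2 scale. With mitochondrial scaling 0 rose and 7 fell, where 396 of the 17344 tested genes rose and 8872 fell. Pnrc2, which links UPF1 to the decapping enzyme, fell to 59.2 and 61.7 CPM after 5 h, against 113 and 116 CPM at 0 h. Dhx34, a helicase that helps UPF1 phosphorylation, fell to 6.42 and 7.13 CPM after 5 h, against 13.6 and 17.7 CPM at 0 h.

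Among the partners upstream of UPF1, exon junction complex genes were mostly higher. Of 10, 7 rose and 3 did not pass, with a median of 0.58, against 22.0% of all tested genes that rose. With mitochondrial scaling 0 rose and 2 fell, against 396 and 8872 of the 17344 tested genes. Pnn, a splicing-linked peripheral component, had 411 and 525 CPM after 5 h, against 191 and 216 CPM at 0 h. Rnps1 and the core protein gene Casc3 rose by 0.99 ± 0.09 and 1.10 ± 0.11 on the log2 scale. Of 6 genes of translation termination and poly(A) binding, 3 rose and 3 did not pass, against the same 22.0% of all tested genes, with a median of 0.39 that was -0.45 with mitochondrial scaling. These 3 were the poly(A)-binding protein genes Pabpc4 (0.89 ± 0.09) and Pabpc1 (0.61 ± 0.08) and the release factor gene Gspt2 (0.58 ± 0.14).

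Decapping and 5′ to 3′ decay genes, which finish off the RNA, were called about as often as all tested genes. Of 10, 2 rose, 3 fell and 5 did not pass, against 22.0% and 21.2% of all tested genes. Their median was -0.09. With mitochondrial scaling 0 rose and 9 fell, where 396 of the 17344 tested genes rose and 8872 fell. Edc4, a scaffold of the decapping complex, had 264 and 216 CPM after 5 h, against 114 and 113 CPM at 0 h. Xrn1, the 5′ to 3′ exonuclease, fell to 70.7 and 78.4 CPM after 5 h, against 133 and 144 CPM at 0 h. Dcp1b, a decapping cofactor, fell to 2.55 and 4.22 CPM after 5 h, against 15.4 and 14.9 CPM at 0 h.

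Smg1 belongs to the family of phosphatidylinositol 3-kinase-related kinases (PIKK), which has 5 other members. Of these, 4 fell and Trrap (-0.25) did not pass, with a median of -1.02, against 21.2% of all tested genes that fell. They are long genes, of 92.0 to 205 kb. Among tested genes of 50 to 100 kb, 699 of 1933 fell, with a median of -0.28. Among those over 100 kb, 512 of 1715 fell, with a median of -0.29. Within their span classes the 4 were at percentiles 4.79 to 20.2 and Trrap was at 52.0. All 5 fell with library totals, where 5257 of the 17344 tested genes fell, and with mitochondrial scaling, where 8872 fell. The DNA damage kinase gene Atr fell to 23.5 and 29.3 CPM after 5 h, against 84.9 and 81.2 CPM at 0 h, and Prkdc and Atm changed by -1.47 ± 0.12 and -1.02 ± 0.11 on the log2 scale. The fall of Smg1, -0.32, was smaller than that of each of the 4, and the difference was not tested. Of 7 genes of the chaperone complexes that mature these kinases, 3 rose, 1 fell and 3 did not pass, against 22.0% and 21.2% of all tested genes (median 0.44, and -0.40 with mitochondrial scaling). Telo2 and Tti2 rose by 1.10 ± 0.12 and 0.86 ± 0.12, and their partner Tti1 changed by -0.71 ± 0.13.

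RNAs known in mammalian cells to be NMD substrates were mostly higher. Of 15, 10 rose and 5 did not pass, with a median of 0.87, against 22.0% of all tested genes that rose. With mitochondrial scaling 5 rose, 4 fell and the median was 0.04, where 396 of the 17344 tested genes rose and 8872 fell. Gas5, a classical substrate, had 2163 and 2382 CPM after 5 h, against 849 and 965 CPM at 0 h. Snhg1 and Snhg12 rose by 1.59 ± 0.10 and 1.87 ± 0.09. These are also snoRNA host genes of 2.35 to 3.94 kb. Most of the 10 that rose span under 5 kb, a class in which 977 of 3033 tested genes rose, with a median of 0.49. The substrates under 5 kb that rose were at percentiles 71.5 to 96.6 of log2 fold change in this class. The substrate under 5 kb that did not pass was at 35.1. RNA stability was not measured, and its part in these values was not tested.

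**Figure D4:**
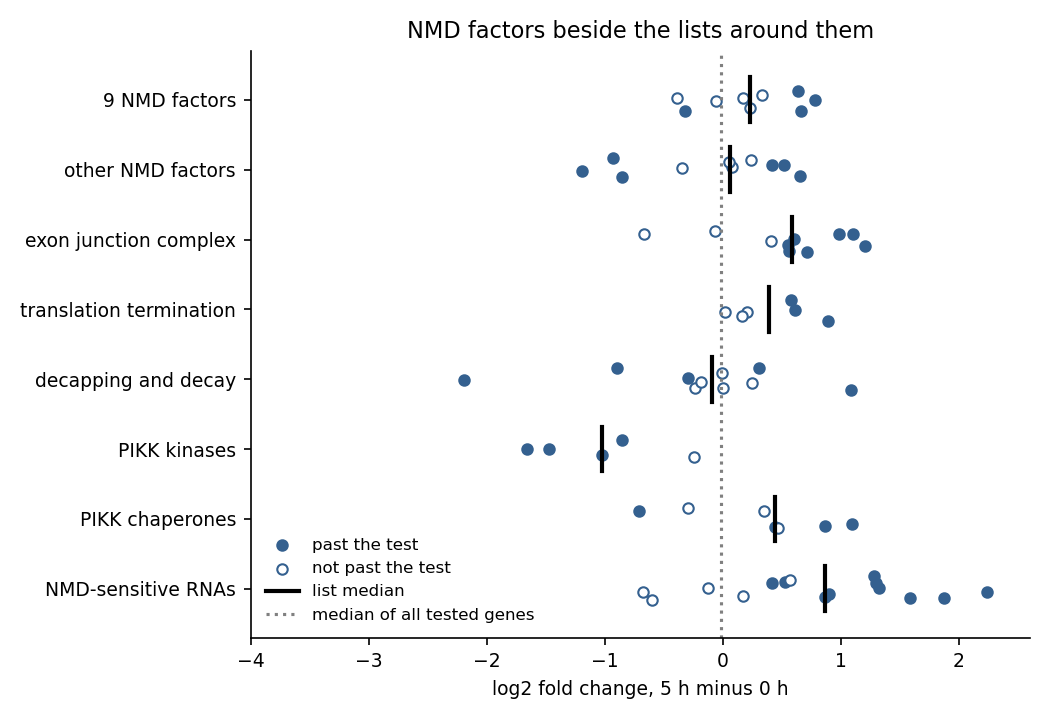
Log2 fold change, 5 h minus 0 h (horizontal axis), of each gene in the 9 NMD factors and 7 lists around the pathway, filled where the gene passed the test, with a black bar at the list median and a dotted line at the median of all tested genes (-0.02). The exon junction complex lies mostly to the right and the kinase relatives of Smg1 to the left.

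The tested genes whose pattern over the 4 libraries lay nearest to that of Upf1 were Ampd2, Rps14 and Arf6. The measure was the Euclidean distance between log2 CPM values centred on each gene's mean, among 10003 genes of at least 5 CPM, and the distances were 0.0328, 0.0352 and 0.0361. Their log2 fold changes were 0.61, 0.61 and 0.60, which had to lie near that of Upf1 because the genes were chosen by this pattern.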

How the data were processed

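The 9 members and the 7 lists around them were chosen with earlier results of these data known. The authors deposited whole-number values for 4 libraries, treated here as estimated counts per gene because the row names follow StringTie's count export, in which 1 fragment can be worth several counts. HISAT2 2.2.1, StringTie 2.2.1 and DESeq2 1.42.0 with mm10 are listed, with no roles, per the submitters' processing notes. The sources used here give no annotation or strand setting, so reads of overlapping genes could not be told apart.

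Genes were kept by filterByExpr (17344 of 55401). The fit used edgeR 4.0.16, TMM factors and the robust quasi-likelihood test, 5 h minus 0 h, without a replicate block, with Benjamini-Hochberg adjustment over all tested genes. Adjusted p-values in the text are from this fit unless another tool (DESeq2, or voom in limma 3.58.1) is named. Log2 fold changes carry the SE of that fit. Spans, overlaps and promoters came from RefSeq tables of GRCm38.p6, and 15096 tested genes (87.0%) had a span. Named were the 9 factors, Snrnp70, for each list the 3 passing genes lowest in adjusted p (1 such gene is not reported here), and the 3 genes nearest to Upf1. Srr, Hic1, Cers1, Gdf1, Gm25683, 4930583K01Rik, Gm40454 and Gm51907 were named afterwards because they overlap a factor. The 14 alternatives changed the scaling, tool, filter, counting unit, robustness, block or libraries.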

Additional observations from a re-analysis of the deposited data

How the results depend on the processing

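The calls of Upf1, Smg5 and Smg8 held in 13 of 14 alternatives each, all but mitochondrial scaling, and that of Smg1 in 12 of 14, all but those without a 0 h library. The number of factors called was 3 to 6. The number of genes called was 5330 to 9268, against 7491, and of genes in the 7 lists 32 to 44, against 39. Signs that turned were, with library totals, Smg6 (-0.035) and Upf3a (-0.10). With mitochondrial scaling they were Upf1 (-0.19), Upf2 (-0.53), Upf3a (-0.67), Smg5 (-0.18), Smg6 (-0.61) and Smg8 (-0.062), as that scaling puts the median gene at -0.86. Higher against lower calls over all genes were 3814 and 3677 with TMM, 2298 and 5257 with library totals and 396 and 8872 with mitochondrial scaling. Leaving out 1 library at a time gave values from -0.21 to 0.081 for Smg9 (0.081 when 0 h replicate 1 was dropped, 0.079 when 5 h replicate 2 was), 0.48 to 0.80 for Upf1 and 0.26 to 0.86 for the Upf3a to Upf3b ratio. Upf2 passed with DESeq2, limma-voom, no count filter, the stricter filter, counts divided by 4, mitochondrial scaling and without 5 h replicate 1, and in the fit below. The replicate numbers are shared by the groups, but the deviations of same-numbered libraries correlated at only 0.0505 across genes, so they were not taken as pairs. With the replicate number as a block, 7382 genes and 5 factors were called, with Upf2 added (edgeR, adjusted p = 0.0111), and 43 genes of the lists. With 2 libraries a group, the low counts of Smg9, 162 to 474, limit what could be detected there.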
